A study of Mus musculus with 13 samples.

Results

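The 10 imprinted genes described here are Grb10, Dlk1, Plagl1, Peg3, Ndn, Zim1, Mest, Sgce, Peg10 and Meg3, which lie outside the Igf2 locus. They were taken by gene symbol from 2 read count tables of mouse small intestine and joined by Ensembl identifier. They are 10 of 25183 genes in the tables, and all 10 are in both. The tables hold 13 RNA-seq libraries in 5 groups. Crypts, the epithelial pockets that house intestinal stem and Paneth cells, were taken from Eed KO (labelled Eed-/-, n = 3), Ezh2 KO (labelled Ezh2-/-, n = 3) and WT mice (n = 3). All crypt donors were of a C57BL/6-FVB mixed background and received beta-naphthoflavone for 6 weeks from an age of 6 weeks, so that they were 12 weeks old. Organoids, epithelial cultures grown from crypts, were Eed KO (AhCre;Eedf/f, C57BL/6-FVB, n = 2) and WT (AhCre, FVB, n = 2), and received the same compound for 10 days. Beta-naphthoflavone switches on the AhCre recombinase in the intestinal epithelium, where it deletes floxed alleles. The sample descriptions name AhCre for the organoids and for the crypts of run 440, where WT mice carried AhCre without a floxed gene. A library is written as its group with the run and the number in its title, so that Eed KO 440_1 is the first of run 440. No label ties the numbers to individual mice or cultures, and the p-values below cover only the variation among these libraries, which may be technical.

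An imprinted gene is expressed from the copy inherited from 1 parent. For most, though not all, this choice is set by DNA methylation laid down in egg or sperm at a control region shared by neighbouring genes. Most imprinted genes are active in the embryo and placenta, and many are switched down in adult tissues. EED and EZH2 are core subunits of Polycomb repressive complex PRC2, EZH2 being the enzyme that methylates histone H3 at lysine residue K27 and EED the subunit that the complex needs to be active. 7 of the 10 genes are usually expressed from the paternal copy (Dlk1, Plagl1, Peg3, Ndn, Mest, Sgce and Peg10) and 3 from the maternal copy (Grb10, Meg3 and Zim1). The counts are summed over both copies, so the parental origin of the transcripts was not read here.

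Depth was 11421666 to 18300644 counts per library. Mitochondrially encoded genes took 16.45% and 17.99% of counts in Eed KO crypts 385_1 and 385_2 and 3.7% in Eed KO 440_1. Their share was 12.38%, 14.48% and 8.65% in WT crypts 385_1, 385_2 and 440_1. It was 3.85% to 6.46% in Ezh2 KO crypts and 7.98% to 9.83% in organoids. Levels are given as CPM (counts scaled to library size) with TMM library scaling over all 13 libraries, where 3 counts correspond to 0.176 to 0.275 CPM. The targeted genes followed the labels: Eed averaged 19.1 ± 5.16 CPM in Eed KO crypts and 54.5 ± 5.26 CPM in WT crypts (SD, n = 3 each), and at 19.2 and 30.5 CPM in Eed KO organoids against 62.4 and 73.4 CPM in WT organoids. Ezh2 was at 17.7 to 21.8 CPM in Ezh2 KO crypts and 72.2 to 95.2 CPM in WT crypts. It was also lower in Eed KO crypts, at 46.1 ± 11.1 CPM (SD, n = 3; log2 fold change against WT -0.92, edgeR adjusted p = 0.00212). That call was lost only within run 440 alone. Of 9 crypt epithelium markers, all were detected in every library, and Epcam, Lgr5, Olfm4, Lyz1 and Cdx2 were lower in Eed KO than in WT crypts (edgeR, adjusted p below 0.05). The Epcam call was lost with crypts paired by number (edgeR adjusted p = 0.0831), and those of Epcam, Lyz1 and Cdx2 within run 440 alone (edgeR adjusted p = 0.244, 0.0768 and 0.113). Stromal transcripts were present in crypts. The summed level of 13 mesenchyme, muscle and endothelium markers was 148 to 335 CPM in Eed KO crypts, 152 to 412 CPM in Ezh2 KO crypts and 67.7 to 764 CPM in WT crypts, the highest being WT 440_1. In organoids it was 10.9 and 14.7 CPM in Eed KO against 5.86 and 11.5 CPM in WT, with 4 to 7 of the 13 markers at 0. Most of it was Vim, averaging 8.96 CPM in Eed KO and 7.12 CPM in WT. Pdgfra was higher in Eed KO organoids (2.88, edgeR adjusted p = 0.025), a call lost in 2 of 9 alternative settings. Of 8 enteroendocrine markers, 6 were called lower and 1 (Sct) higher in Eed KO crypts, against 10.6% and 13.4% of all genes. In organoids 4 (Chga, Chgb, Cck and Sct) were higher and 0 lower, against 13.5% and 4.63%. By Xist and Ddx3y levels, Eed KO crypts of run 385 were female and WT crypts of that run male, all run 440 crypts were female, and Eed KO organoids were male and WT organoids female. The strain labels of the organoid groups also differed.

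Transcript start windows are shown for the 4 genes that rose in both crypts and organoids and had a RefSeq window, and for Peg3, which was measured in every library and did not pass either test. Each window runs 300 bases, from 250 before to 50 after the start, on build GRCm38.p6, and is written 5′ to 3′ on the gene's strand with CpG dinucleotides in capitals. Of the 10 genes, 8 matched the table by symbol, with 12 windows in all. Grb10 is at chr11:12037371-12037670 on the minus strand, Plagl1 at chr10:13090582-13090881 on the plus strand, Mest at chr6:30737800-30738099 on the plus strand, Dlk1 at chr12:109452573-109452872 on the plus strand and Peg3 at chr7:6730370-6730669 on the minus strand.
Grb10: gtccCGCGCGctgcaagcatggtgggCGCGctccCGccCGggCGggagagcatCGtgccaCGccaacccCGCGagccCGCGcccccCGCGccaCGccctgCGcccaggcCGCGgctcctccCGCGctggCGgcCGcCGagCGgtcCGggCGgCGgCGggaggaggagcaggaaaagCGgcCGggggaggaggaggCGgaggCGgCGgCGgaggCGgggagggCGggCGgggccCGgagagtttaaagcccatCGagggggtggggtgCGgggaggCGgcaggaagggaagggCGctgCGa
Plagl1: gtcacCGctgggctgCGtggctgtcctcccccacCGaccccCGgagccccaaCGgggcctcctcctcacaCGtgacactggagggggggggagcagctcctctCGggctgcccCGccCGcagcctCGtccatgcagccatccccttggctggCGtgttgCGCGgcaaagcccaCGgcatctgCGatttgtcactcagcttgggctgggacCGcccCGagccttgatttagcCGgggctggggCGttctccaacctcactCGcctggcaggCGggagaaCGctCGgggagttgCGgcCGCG
Mest: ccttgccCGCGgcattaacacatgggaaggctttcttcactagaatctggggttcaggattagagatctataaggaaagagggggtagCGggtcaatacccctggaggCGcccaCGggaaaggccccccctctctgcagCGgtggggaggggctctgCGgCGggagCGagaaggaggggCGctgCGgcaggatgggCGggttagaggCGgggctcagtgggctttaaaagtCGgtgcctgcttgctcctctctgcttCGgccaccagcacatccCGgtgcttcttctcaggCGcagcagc
Dlk1: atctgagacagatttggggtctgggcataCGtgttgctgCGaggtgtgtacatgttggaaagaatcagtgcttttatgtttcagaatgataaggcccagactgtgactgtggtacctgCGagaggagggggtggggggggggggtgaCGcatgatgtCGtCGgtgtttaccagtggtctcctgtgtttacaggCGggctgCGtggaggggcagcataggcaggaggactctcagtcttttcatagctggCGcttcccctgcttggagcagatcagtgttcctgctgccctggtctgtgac
Peg3: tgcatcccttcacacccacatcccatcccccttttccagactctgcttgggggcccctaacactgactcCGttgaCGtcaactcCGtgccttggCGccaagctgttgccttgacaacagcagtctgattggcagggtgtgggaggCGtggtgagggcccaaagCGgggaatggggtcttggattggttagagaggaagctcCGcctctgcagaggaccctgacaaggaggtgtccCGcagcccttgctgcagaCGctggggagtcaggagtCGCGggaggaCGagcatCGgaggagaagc

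The windows ranged from CpG-dense to CpG-poor. The Grb10 window shown held 45 CpG, an observed-to-expected CpG ratio of 0.973, which is above that of 92.5% of 32851 RefSeq windows. Plagl1 held 26 (0.696), Mest 17 (0.590), Peg3 13 (0.463) and Dlk1 9 (0.427), against a median ratio of 0.384 over all windows. A second start of Grb10 (0.446), a second start of Meg3 (0.0588) and another start of Mest (0.327) were less dense than the first. The letters TGCCGC, the core of the motif that ZFP57 binds on methylated imprinted copies, were found on either strand in 6 of the 12 windows, against 11.6% of all windows. The 6 were windows of Grb10, Plagl1, Meg3 and Zim1 and a pair of Mest windows that overlap almost wholly. The letters include a CpG, and the share over all windows is not matched to the CpG content of these 12. Such a match describes the letters, not binding.

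**Figure D1:**
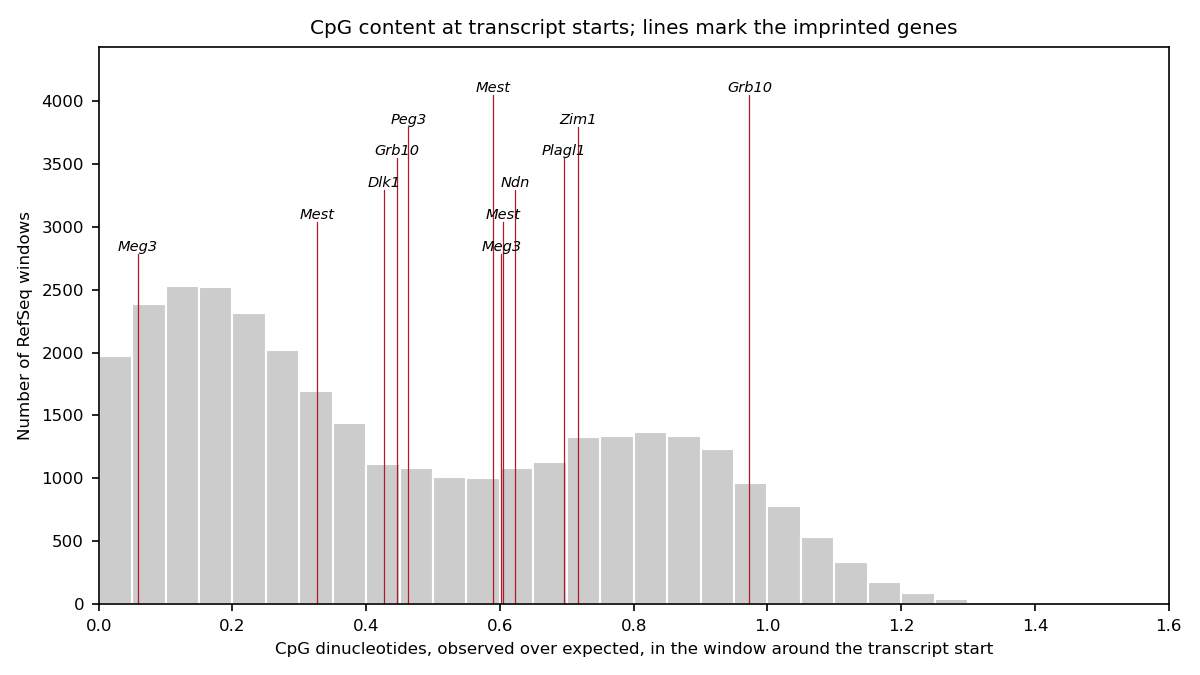
Number of RefSeq transcript start windows (vertical axis) by observed-to-expected CpG ratio (horizontal axis), with lines for the 12 windows of 8 imprinted genes. Grb10 has the densest window at 0.973 and Meg3 the sparsest at 0.0588, with the median of all windows at 0.384.

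In crypts, 6 of the 9 genes tested rose in Eed KO and none fell. Grb10, Dlk1, Plagl1, Sgce, Peg10 and Mest were all higher in Eed KO crypts, while Meg3, Ndn and Peg3 did not pass and Zim1 was at 0 counts in every crypt library. Over all 14406 genes tested, 13.4% were called higher and 10.6% lower (edgeR quasi-likelihood test, Benjamini-Hochberg adjusted p below 0.05, 9 crypt libraries with run as a term). The median log2 fold change was 4.20 over the 9 genes and -0.04 over all genes. With crypts paired by number, 1046 of 13802 genes were called higher and 543 lower, and the same 6 of the 9 were called. In 7 of the 9, every Eed KO library lay above every WT library, against 17.3% of all genes. Dlk1, Peg10, Mest and Ndn passed the filter on low counts only through the Eed KO libraries. The counts of called genes and the median are thus a description of the genes that could be tested.

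Grb10 (ENSMUSG00000020176, chromosome 11, 11930508 to 12038683, minus strand) encodes an adaptor protein that binds the insulin and IGF1 receptors and restrains their signalling and growth. It was at 57.9, 49.0 and 36.8 CPM in Eed KO crypts, 9.18, 6.72 and 6.68 CPM in Ezh2 KO crypts and 2.94, 5.68 and 5.51 CPM in WT crypts. The Eed KO libraries stood far above the other 6. The mean was 47.9 ± 10.6 CPM in Eed KO and 4.71 ± 1.54 CPM in WT crypts (SD, n = 3 each), a log2 fold change of 3.33 ± 0.31 (SE, edgeR adjusted p = 0.000266). Within run 385 the value was 3.60 and within run 440 2.87, both called (edgeR adjusted p = 0.000228 and 0.0125).

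Dlk1 (ENSMUSG00000040856, chromosome 12, 109452823 to 109463336, plus strand) encodes a membrane protein with EGF-like repeats, related to Notch ligands, that keeps precursor cells such as preadipocytes undifferentiated. It had 127, 115 and 191 counts in Eed KO crypts, 6, 5 and 10 counts in Ezh2 KO crypts and 0, 0 and 2 counts in WT crypts. The gene was thus near the detection limit in WT and present in every Eed KO library. Its mean was 10.3 ± 0.813 CPM in Eed KO and 0.0408 ± 0.0707 CPM in WT crypts (SD, n = 3 each). The summed counts of 433 in Eed KO and 2 in WT crypts, scaled to depth, gave a ratio of 199.9 with a 95% counting interval of 55.0 to 1656, and the ratios with counting intervals given for other genes were made in the same way. The fitted log2 fold change was 7.51 ± 0.62 (SE, edgeR adjusted p = 0.00018), a size that depends on how 0 counts are handled.

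Among the nuclear factors, Plagl1 rose and Peg3 and Ndn did not pass. Plagl1 (ENSMUSG00000019817, chromosome 10, 13090691 to 13131694, plus strand) encodes a zinc finger transcription factor that slows the cell cycle and regulates other imprinted genes. It was at 36.0, 30.5 and 13.6 CPM in Eed KO crypts, 1.44, 0.824 and 1.20 CPM in Ezh2 KO crypts and 0.623, 0.916 and 1.29 CPM in WT crypts. Every Eed KO library lay above all others, the run 440 one being the lowest of its group, while Ezh2 KO and WT crypts overlapped. The log2 fold change was 4.67 ± 0.45 (SE, edgeR adjusted p = 0.000315), with 5.39 in run 385 and 3.53 in run 440.

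Peg3 (ENSMUSG00000002265, chromosome 7, 6703892 to 6730421, minus strand) encodes a large zinc finger protein. It was at 11.5, 10.6 and 1.94 CPM in Eed KO crypts, 7.87, 7.42 and 4.73 CPM in Ezh2 KO crypts and 6.40, 6.87 and 5.21 CPM in WT crypts, and so was well detected without any deletion. Eed KO 440_1 lay below every WT library and the other Eed KO libraries above. The log2 fold change was 0.08 ± 0.44 (SE, edgeR adjusted p = 0.919). The runs differed in sign, at 0.71 in run 385 (edgeR adjusted p = 0.0744) and -1.29 in run 440. The run 440 value rests on 1 Eed KO and 1 WT library.

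Ndn (ENSMUSG00000033585, chromosome 7, 62348277 to 62349928, plus strand) encodes necdin, a MAGE family protein that holds back cell division in neurons. It had 18, 20 and 20 counts in Eed KO crypts, 8, 5 and 9 counts in Ezh2 KO crypts and 0, 6 and 21 counts in WT crypts. WT 440_1 reached the Eed KO range. The log2 fold change was 1.36 ± 0.79 (SE, edgeR adjusted p = 0.256), with 2.43 in run 385 and -0.00 in run 440. Zim1, an imprinted zinc finger gene next to Peg3 (ENSMUSG00000002266, chromosome 7, 6675443 to 6696450, minus strand), had 1 count in all 13 libraries, in Eed KO organoid 385_2, and could not be tested.

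Sgce and Peg10 are divergent neighbours on chromosome 6 whose starts lie 102 bases apart, and both rose. Sgce (ENSMUSG00000004631, 4674350 to 4747204, minus strand) encodes epsilon-sarcoglycan, a membrane protein whose loss of function causes a movement disorder in humans. It had 225, 201 and 259 counts in Eed KO crypts, 15, 15 and 30 counts in Ezh2 KO crypts and 0, 7 and 33 counts in WT crypts. Its mean was 16.6 ± 1.23 CPM in Eed KO and 0.888 ± 1.03 CPM in WT crypts (SD, n = 3 each), a log2 fold change of 4.45 ± 0.77 (SE, edgeR adjusted p = 0.00375). The lowest Eed KO library was far above WT 440_1, the highest of WT.

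Peg10 (ENSMUSG00000092035, 4747306 to 4760517, plus strand) encodes a protein derived from a retrotransposon, needed for placental development. It had 60, 37 and 57 counts in Eed KO crypts, 3, 1 and 3 counts in Ezh2 KO crypts and 0, 1 and 1 counts in WT crypts. The ratio of Eed KO to WT crypts was 71.1 with a 95% counting interval of 19.3 to 592, and the fitted log2 fold change was 5.93 ± 0.64 (SE, edgeR adjusted p = 0.000465). Mest (ENSMUSG00000051855, chromosome 6, 30723547 to 30748455, plus strand) encodes an enzyme of the alpha/beta hydrolase fold, named for its expression in embryonic mesoderm. It had 17, 14 and 15 counts in Eed KO crypts, 2, 0 and 4 counts in Ezh2 KO crypts and 1, 1 and 0 counts in WT crypts. The 3 Eed KO libraries were alike and all others near 0, a ratio to WT of 21.2 with a 95% counting interval of 5.55 to 181. The log2 fold change was 4.20 ± 0.88 (SE, edgeR adjusted p = 0.00867), and within run 440 alone, where the fitted value was 6.92 ± 2.25 (SE), the call was lost (edgeR adjusted p = 0.1). Mest overlaps Copg2 on the opposite strand. The sources used here do not give whether reads were counted by strand, and Copg2 did not pass the test in crypts or organoids.

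Meg3 (ENSMUSG00000021268, chromosome 12, 109541001 to 109571726, plus strand) is a long non-coding RNA made from the maternal copy, 77.7 kb downstream of Dlk1, which is made from the paternal copy. It had 190, 364 and 187 counts in Eed KO crypts, 103, 32 and 95 counts in Ezh2 KO crypts and 10, 21 and 176 counts in WT crypts. WT 440_1 lay close to the lowest Eed KO library, while the other WT libraries were far lower. The log2 fold change was 2.62 ± 0.91 (SE, edgeR adjusted p = 0.07), with adjusted p from 0.000792 to 0.909 over 17 alternative settings. Within run 385 it was 3.97 (edgeR adjusted p = 0.000792) and within run 440 0.16 (edgeR adjusted p = 0.909). Meg3 was also called with DESeq2 (adjusted p = 0.000939), without Eed KO 440_1 (edgeR adjusted p = 0.00137) and without WT 440_1 (edgeR adjusted p = 0.00138).

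Meg3, Ndn, Sgce, Plagl1 and, on 2 counts, Dlk1 were highest among WT crypts in WT 440_1, which had the highest sum of the 13 stromal markers. Most of that sum came from Dcn and Col3a1 (263 and 231 CPM). The endothelial genes Pecam1 and Cdh5 were lowest among WT crypts in WT 440_1 (1.96 and 0.122 CPM). Peg3 was also lowest there, at 5.21 CPM against 6.40 and 6.87 CPM. The stromal proteoglycan gene Dcn averaged 39.6 CPM in Eed KO and 263 CPM in WT in run 440, against 135 CPM in Eed KO and 56.2 CPM in WT in run 385. The maternally expressed RNA Rian, a neighbour of Meg3, followed the same order, with 97, 270 and 80 counts in Eed KO crypts and 2, 11 and 86 counts in WT crypts (log2 fold change 2.92, edgeR adjusted p = 0.106). The part that stromal cells played in these levels was not tested. In bulk samples, more cells of a type and more RNA per cell cannot be told apart. Dlk1, Peg10 and Mest had 2, 1 and 0 counts in WT 440_1, each under 3 counts.

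**Figure D2:**
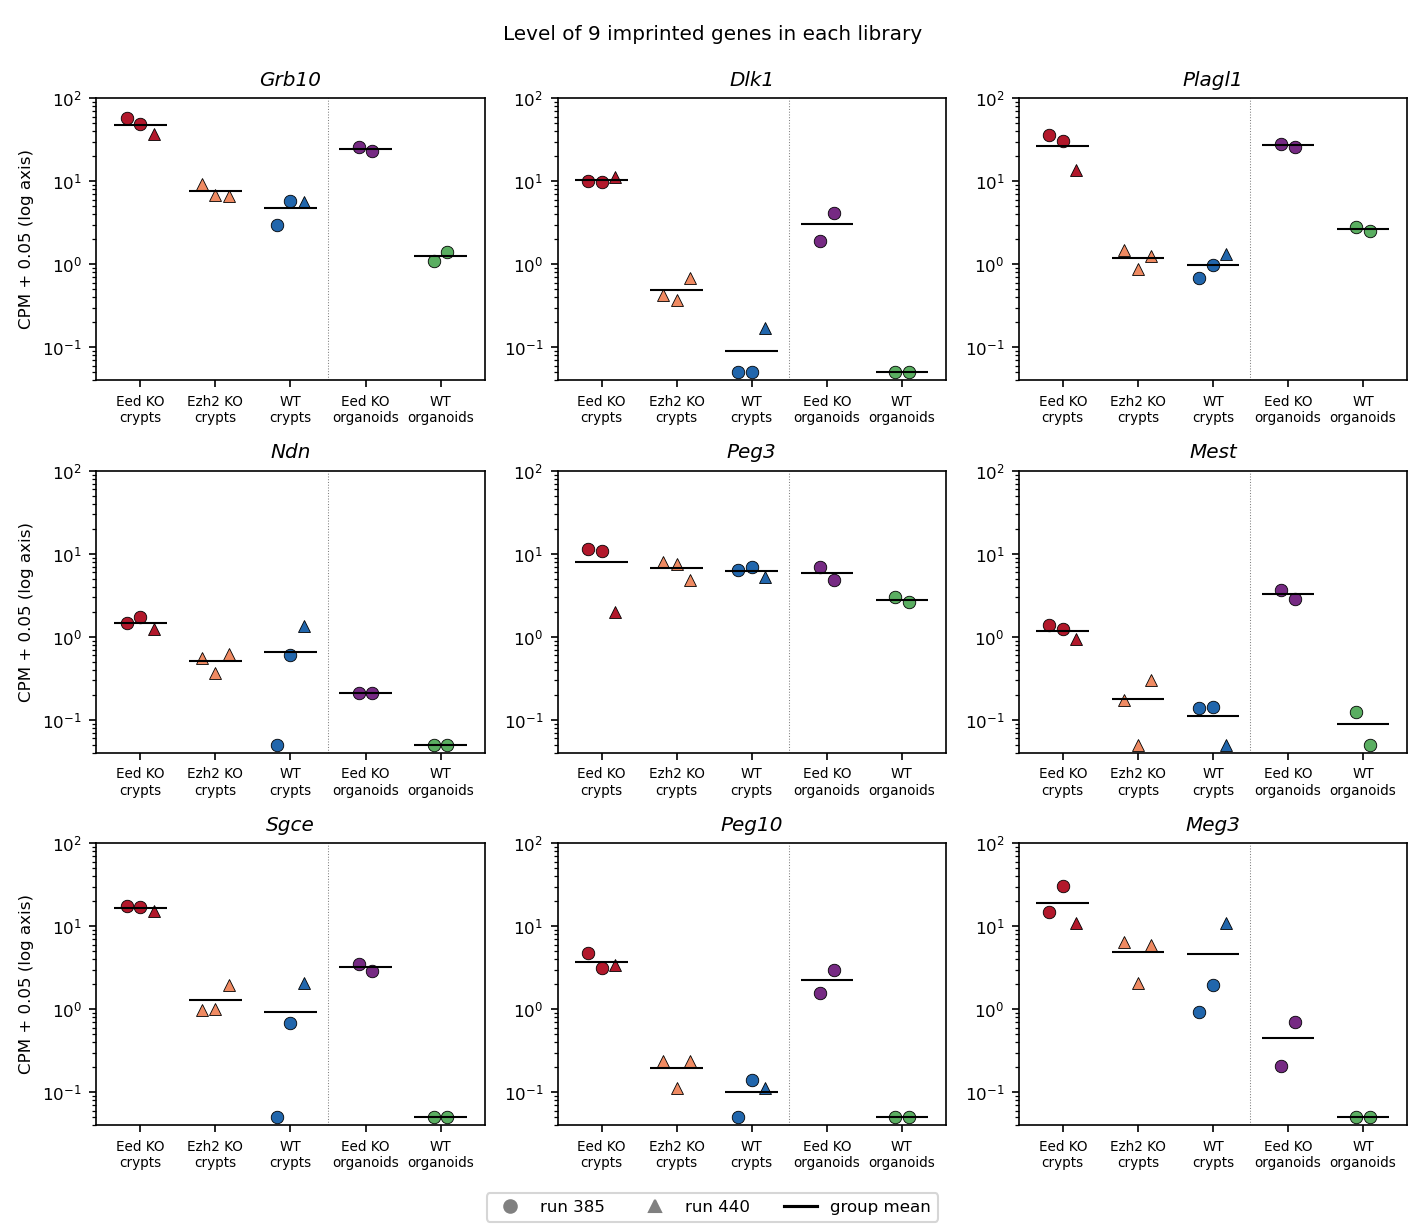
Level of 9 imprinted genes in each library, as CPM plus 0.05 on a log axis, by group, with 1 point per library and a line at the group mean. For Grb10, Dlk1, Plagl1, Mest, Sgce and Peg10 the Eed KO crypts and organoids lie above every WT library of the same kind, and for Ndn and Peg3 the crypt groups overlap.

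**Figure D3:**
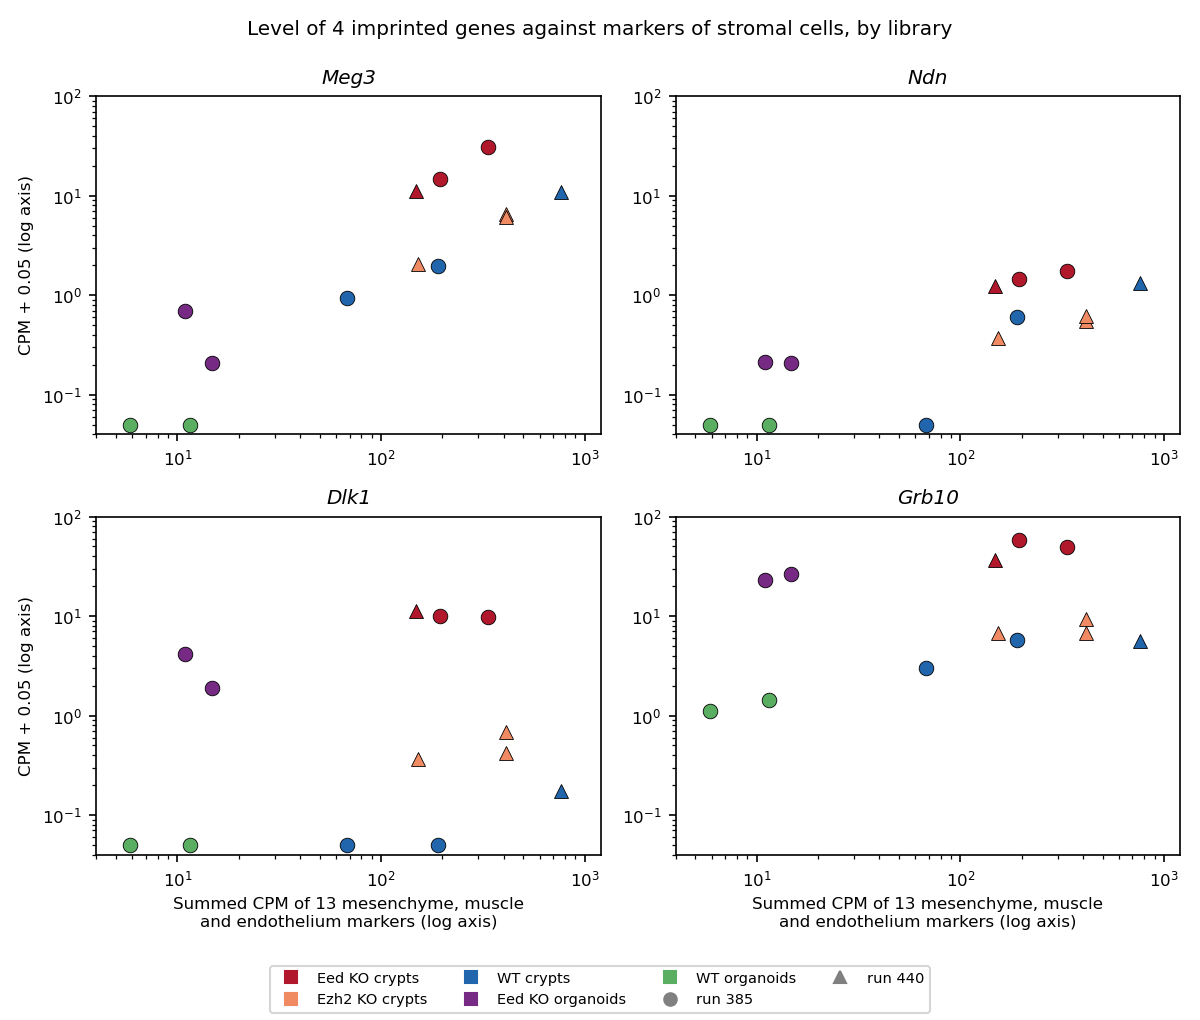
Level of Meg3, Ndn, Dlk1 and Grb10 (CPM plus 0.05, log axis) against the summed CPM of 13 stromal markers (log axis), 1 point per library. WT 440_1, the rightmost point at 764 CPM, is high for Meg3 and Ndn and low for Dlk1, and the organoids lie at 5.86 to 14.7 CPM, with Eed KO above WT for Dlk1 and Grb10.

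In organoids, 6 of 7 genes tested were higher and 0 lower in Eed KO, against 13.5% of 12958 genes called higher and 4.63% lower. They were Grb10, Plagl1, Mest, Dlk1, Sgce and Peg10, the 6 called in crypts. The median log2 fold change was 6.00 over the 7 genes and near 0 over all genes. Grb10 was at 26.1 and 23.0 CPM in Eed KO organoids and 1.05 and 1.37 CPM in WT organoids, a log2 fold change of 4.34 ± 0.25 (SE, edgeR adjusted p = 0.000113). Plagl1 was at 28.4 and 25.6 CPM in Eed KO organoids and 2.78 and 2.48 CPM in WT organoids, a log2 fold change of 3.35 ± 0.20 (SE, edgeR adjusted p = 0.000128). These were the most abundant of the 10 genes in Eed KO organoids.

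The other 4 genes that rose were at or near 0 in WT organoids and passed the filter on low counts only through the Eed KO libraries. Mest had 45 and 35 counts in Eed KO organoids and 1 and 0 counts in WT organoids, a ratio of 80.0 with a 95% counting interval of 14.0 to 3199 (edgeR adjusted p = 0.00199). Dlk1 had 23 and 51 counts in Eed KO organoids and none in WT organoids, at least 24.7-fold higher by a floor of 3 counts over the group (edgeR adjusted p = 0.00664). Sgce had 44 and 35 counts in Eed KO organoids and none in WT organoids, at least 26.3-fold higher (edgeR adjusted p = 0.00218). Peg10 had 19 and 36 counts in Eed KO organoids and none in WT organoids, at least 18.3-fold higher (edgeR adjusted p = 0.00632). The 4 genes together thus had 1 count in WT organoids.

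Peg3 had 6.93 and 4.83 CPM in Eed KO organoids and 2.93 and 2.57 CPM in WT organoids, without overlap. Its log2 fold change of 1.09 ± 0.32 did not pass (SE, edgeR adjusted p = 0.0555). It did without a filter on low counts (edgeR adjusted p = 0.0332) and without Eed KO organoid 385_2 (edgeR adjusted p = 0.0474). Meg3 had 2 and 8 counts and Ndn 2 and 2 counts in Eed KO organoids, with none in WT organoids, which put them at least 3.33-fold and 1.33-fold higher. Both were too low to test. The stromal gene Dcn had 1 count over all 4 organoid libraries.

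An interaction term fitted across the 13 libraries compared the Eed effect in crypts with that in organoids. None of the 9 genes tested was called, against 4.12% of 14761 genes, and 2 had an unadjusted p below 0.05 (edgeR), while DESeq2 called 0. Plagl1 had a crypts minus organoids value of 1.30 ± 0.55 on the log2 scale (SE, edgeR adjusted p = 0.252), which was called within run 385 alone (2.08, edgeR adjusted p = 0.00652), without Eed KO crypt 440_1 (2.07, edgeR adjusted p = 0.00928) and without WT crypt 440_1 (2.09, edgeR adjusted p = 0.00822). Grb10 had a value of -1.02 ± 0.46 (SE, edgeR adjusted p = 0.28). The median was -1.85 over the 9 genes and -0.14 over all genes, and in this fit only Plagl1 was above 0. Errors were wide for genes at 0 in WT organoids, such as Sgce (-4.01 ± 2.52, SE) and Meg3 (-2.87 ± 3.54, SE). The lack of calls thus does not show that the effects were equal.

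In Ezh2 KO crypts none of the 9 genes tested passed in either direction relative to WT crypts, where 0.0208% of all genes did (3 of 14406, all lower), and 1 had an unadjusted p below 0.05 (edgeR), while DESeq2 called 0. All Ezh2 KO crypts were in run 440 with 1 WT library, so the run term carries much of this comparison. In 2 of the 9, every Ezh2 KO library lay above every WT library, against 10.6% of all genes. These 2 were Dlk1 and Grb10. Dlk1 had 21 counts over 3 Ezh2 KO libraries and 2 over 3 WT libraries, a ratio of 8.48 with a 95% counting interval of 2.07 to 74.6 (log2 fold change 2.68 ± 0.81, SE, edgeR adjusted p = 0.579), and a log2 fold change of 1.82 within run 440 (edgeR adjusted p = 0.632). Grb10 averaged 7.53 ± 1.43 CPM in Ezh2 KO and 4.71 ± 1.54 CPM in WT crypts (SD, n = 3 each), a log2 fold change of 0.74 ± 0.35 (SE, edgeR adjusted p = 0.614) and of 0.49 within run 440 (edgeR adjusted p = 0.705).

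The other 7 genes were fitted with wide errors between Ezh2 KO and WT crypts. Plagl1 differed by 0.53 ± 0.53 on the log2 scale, Sgce by 0.02 ± 0.79 and Peg10 by 1.45 ± 0.92 (SE). Mest differed by 1.63 ± 1.26 and Peg3 by 0.92 ± 0.50 (SE). Meg3 was at -0.34 ± 0.86 and Ndn at -0.83 ± 0.88 (SE). Without WT 440_1, which leaves no WT library in that run, Peg3 alone was called (2.51, edgeR adjusted p = 0.0324).

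The 2 knockouts were also compared directly. Eed KO crypts exceeded Ezh2 KO crypts for 5 of 9 genes tested, against 12.0% of all genes, and 0 of the 9 were lower, against 8.05% of all genes. Dlk1 was higher by 4.83 ± 0.53 on the log2 scale (SE, edgeR adjusted p = 0.000803), Peg10 by 4.48 ± 0.61 (SE, edgeR adjusted p = 0.00203), Sgce by 4.43 ± 0.85 (SE, edgeR adjusted p = 0.00855), Plagl1 by 4.14 ± 0.50 (SE, edgeR adjusted p = 0.00118) and Grb10 by 2.59 ± 0.34 (SE, edgeR adjusted p = 0.00176). Within run 440, which holds all Ezh2 KO libraries, the values were 4.73, 4.53, 3.67, 3.64 and 2.38, and that of Peg3 was -1.69. These run 440 values rest on 1 Eed KO library. Mest (2.57, edgeR adjusted p = 0.0771) and Meg3 (2.96, edgeR adjusted p = 0.0878) did not pass. Leaving out Eed KO 440_1 ended the call of Peg10 (4.93, edgeR adjusted p = 0.171) and gave calls for Meg3 (edgeR adjusted p = 0.00463) and Ndn (edgeR adjusted p = 0.0493), and leaving out WT 440_1 gave calls for Mest (edgeR adjusted p = 0.0351) and, lower in Eed KO, Peg3 (-1.78, edgeR adjusted p = 0.0111). This comparison and that of Eed KO with WT crypts share the Eed KO libraries. Here too Dlk1, Peg10, Mest and Ndn passed the filter on low counts only through those libraries. The count of called genes is thus a description of the genes that could be tested.

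**Figure D4:**
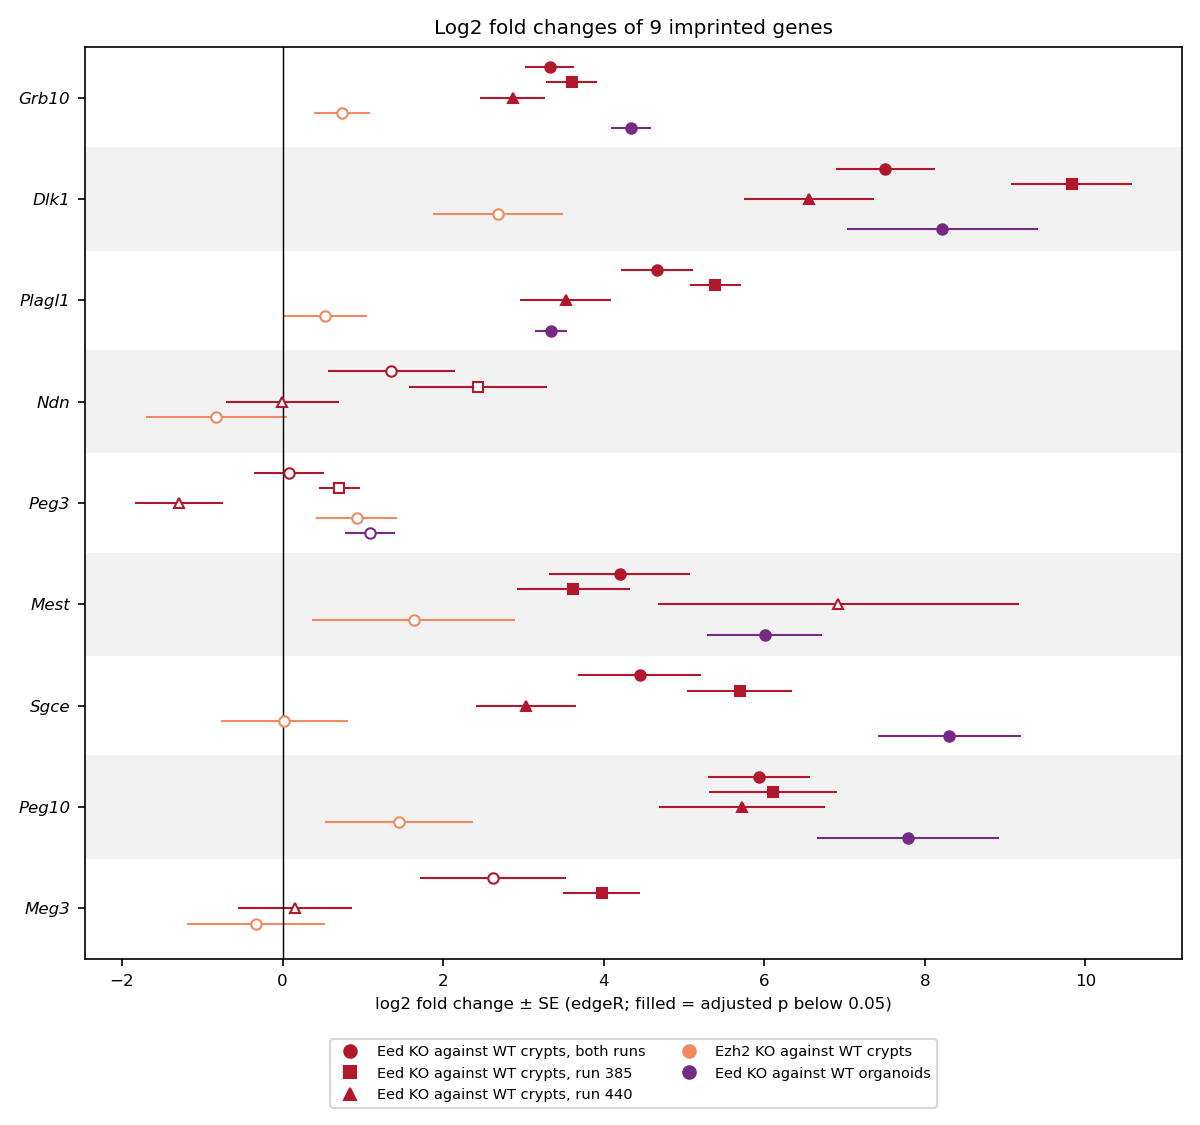
Log2 fold change with its standard error for 9 imprinted genes in 5 fits, with filled points where the edgeR adjusted p was below 0.05. The Eed KO values of Grb10, Dlk1, Plagl1, Mest, Sgce and Peg10 lie between 2.87 and 9.83, whereas the Ezh2 KO values are open and lie between -0.83 and 2.68.

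Levels per kilobase of exon allow the genes to be ordered, with a limit. Exon lengths came from GENCODE M21, whose gene models are longer than the deposited ones for some genes. The Ndn exons there (3694 bases) exceed its whole deposited span, and Plagl1 starts at 13060504 rather than 13090691. The levels per kb of these genes may thus be too low. In Eed KO crypts Grb10 was the most abundant at 5.27 ± 1.16 CPM per kb, followed by Plagl1 at 3.42 ± 1.49, Dlk1 at 1.82 ± 0.144 and Sgce at 1.56 ± 0.116 (SD, n = 3). In WT crypts Grb10 came first at 0.518 ± 0.169 CPM per kb, then Peg3 at 0.462 ± 0.0645 and Meg3 at 0.25 ± 0.301, while Dlk1 was last of the detected genes at 0.00722 ± 0.0125 (SD, n = 3). In Ezh2 KO crypts Grb10 (0.828 ± 0.157), Peg3 (0.501 ± 0.127) and Meg3 (0.266 ± 0.134) again led (SD, n = 3). Neighbours in the order overlapped within 1 SD of their means in 8 of 8 pairs in Eed KO crypts, 7 of 8 in Ezh2 KO crypts and 8 of 8 in WT crypts. In Eed KO organoids Plagl1 (3.45 ± 0.252) and Grb10 (2.70 ± 0.244) led, and in WT organoids Plagl1 (0.337 ± 0.0269) and Peg3 (0.206 ± 0.0192), all in CPM per kb (SD, n = 2 each).

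Imprinted genes sit in clusters, and the neighbours at the 7 loci were counted from a list of 34 genes. Of these, 19 could be tested in crypts, of which 4 were higher and 0 lower in Eed KO than in WT, against 13.4% of all genes higher and 10.6% lower, with a median log2 fold change of 0.05. Peg12 and Mkrn3, paternally expressed genes of the Ndn cluster, were among them. Both passed the filter on low counts only through the Eed KO libraries. Peg12 averaged 4.29 ± 1.45 CPM in Eed KO and 0.516 ± 0.146 CPM in WT crypts (SD, n = 3 each; log2 fold change 2.98 ± 0.41, SE, edgeR adjusted p = 0.0014). Mkrn3 averaged 1.96 ± 0.71 CPM in Eed KO and 0.344 ± 0.101 CPM in WT crypts (SD, n = 3 each; log2 fold change 2.44 ± 0.47, SE, edgeR adjusted p = 0.00619). Snrpn, the splicing protein gene at the centre of that cluster, did not pass (-0.44 ± 0.17, SE, edgeR adjusted p = 0.096), so genes of 1 imprinted cluster had different test results.

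The other 2 neighbours called in crypts were Phactr2 and Ikzf1. Phactr2, an actin regulator near Plagl1, had a log2 fold change of 1.19 ± 0.23 (SE, edgeR adjusted p = 0.00583). Ikzf1, a leukocyte transcription factor near Grb10, was at 21.8, 17.7 and 9.69 CPM in Eed KO crypts and 7.92, 6.51 and 8.39 CPM in WT crypts (log2 fold change 1.05 ± 0.29, SE, edgeR adjusted p = 0.0294). Its call was lost without any 1 of 4 run 385 crypts, within run 440 (0.34, edgeR adjusted p = 0.636) and with crypts paired by number (edgeR adjusted p = 0.122). The leukocyte gene Ptprc was at 4.52 to 63.8 CPM in Eed KO and 14.1 to 23.6 CPM in WT crypts, and 6 immune markers summed to 276 to 512 CPM in Eed KO and 519 to 1407 CPM in WT crypts. Most of that sum was Cd74, which averaged 329.7 CPM in Eed KO and 886 CPM in WT crypts and was called lower (edgeR adjusted p = 0.0129). The other 5 had higher means in Eed KO, and Laptm5 (22.8 CPM in Eed KO and 8.85 CPM in WT crypts, edgeR adjusted p = 0.00336) and Tyrobp (3.29 CPM in Eed KO and 0.969 CPM in WT crypts, edgeR adjusted p = 0.0436) were called higher. With crypts paired by number the calls of Cd74 (edgeR adjusted p = 0.081) and Tyrobp (edgeR adjusted p = 0.105) were lost. The part of immune cells in the Ikzf1 level was not tested. Within run 440 alone, with 1 Eed KO and 1 WT library, none of the 4 was called.

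At the Sgce and Peg10 locus, the 6 other genes tested in crypts had a median log2 fold change of 0.01 and none was called. In organoids, 2 of 5 tested there were higher: Casd1, a sialic acid acetyltransferase gene (1.50 ± 0.25, SE, edgeR adjusted p = 0.00739), and Ppp1r9a, a gene for an actin-binding neuronal protein (2.46 ± 0.22, SE, edgeR adjusted p = 0.000672). Over all loci in organoids, 3 of 14 neighbours tested were higher and 1 lower, against 13.5% of all genes higher and 4.63% lower. The 1 lower was Snrpn (-0.63 ± 0.17, SE, edgeR adjusted p = 0.0409), a call lost in 4 of 9 alternative settings, DESeq2 among them. The third higher was Phactr2 (1.35 ± 0.23, SE, edgeR adjusted p = 0.00781), called in both crypts and organoids. In Ezh2 KO crypts none of the 19 was called.

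**Figure D5:**
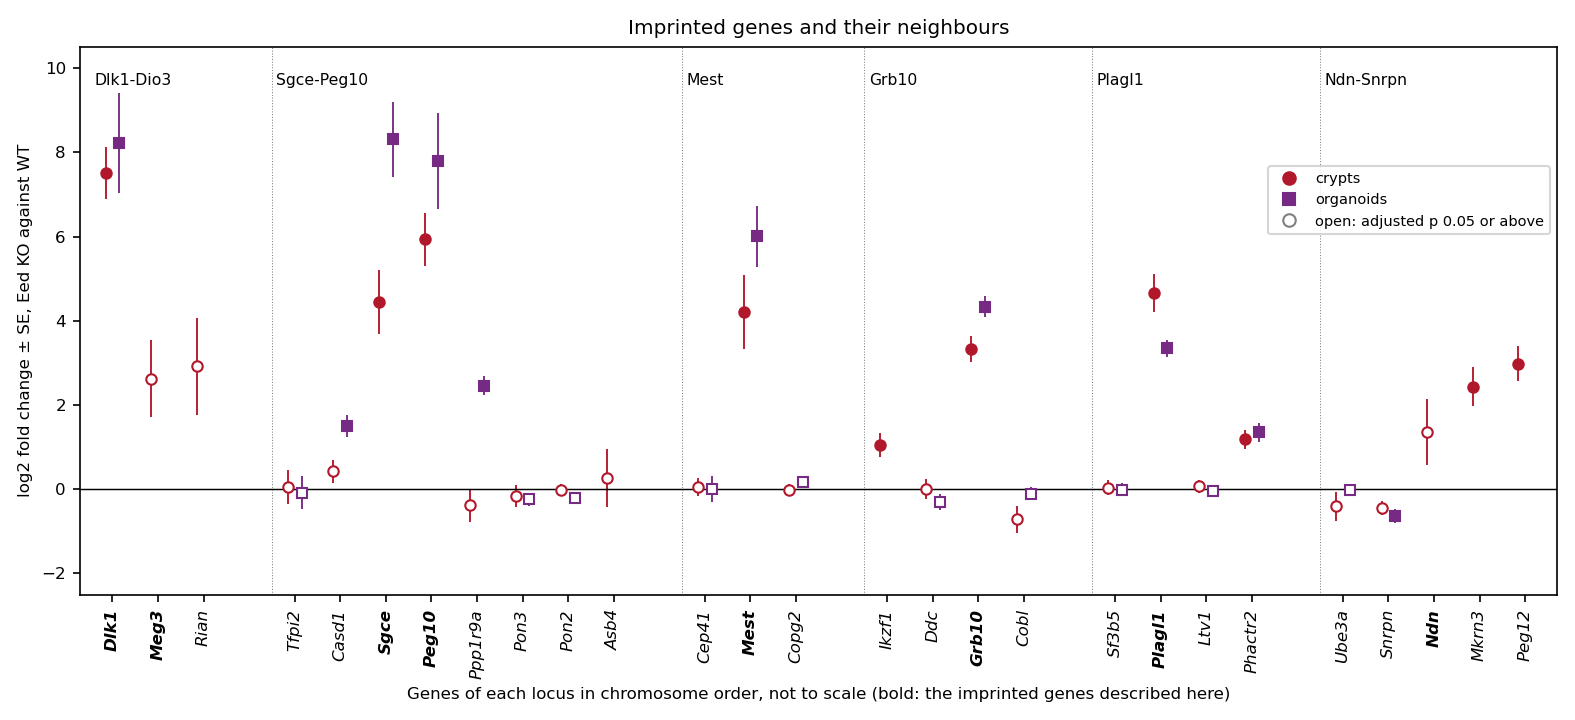
Log2 fold change with its standard error, Eed KO against WT, for imprinted genes and their neighbours in chromosome order within 6 loci, in crypts and organoids, with filled points where the edgeR adjusted p was below 0.05. At the Sgce and Peg10 locus the pair stands at 4.45 and 5.93 in crypts beside neighbours near 0, and in the Ndn cluster Peg12 and Mkrn3 stand at 2.98 and 2.44 beside Snrpn at -0.44.

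Of 36 listed imprinted genes at other loci, 29 could be tested in crypts, of which 7 were higher and 1 lower in Eed KO than in WT, against 13.4% of all genes higher and 10.6% lower, with a median log2 fold change of 0.33. Besides Igf2 (5.69 ± 0.27, SE, edgeR adjusted p = 2.16e-05) and H19 (85 against 3 counts, a ratio of 26.2 with a 95% counting interval of 8.65 to 129, edgeR adjusted p = 0.00684), they included Rasgrf1, an activator of RAS. Rasgrf1 had 185 counts over the Eed KO crypts and 1 over the WT crypts, a ratio of 170.8 with a 95% counting interval of 30.3 to 6782 (edgeR adjusted p = 0.000465). The homeobox gene Dlx5 had 90 counts over the Eed KO crypts and none in WT crypts, at least 27.7-fold higher (edgeR adjusted p = 0.00885), a call that DESeq2 did not make (adjusted p = 0.128). The amino acid transporter gene Slc38a4 (3.55 ± 0.60, SE, edgeR adjusted p = 0.00325) and the placental growth restrainer Phlda2 (2.58 ± 0.40, SE, edgeR adjusted p = 0.00213) were also higher. Slc22a3, an organic cation transporter gene, was the 1 lower, at 1.07 ± 0.671 CPM in Eed KO and 6.18 ± 2.32 CPM in WT crypts (SD, n = 3 each; -2.57 ± 0.36, SE, edgeR adjusted p = 0.0015). In organoids 7 of 23 tested were higher and 0 lower, against 13.5% of all genes higher and 4.63% lower, with Igf2 and H19 among them, and in Ezh2 KO crypts none of the 29 was called. H19, Rasgrf1, Dlx5 and Slc38a4 in crypts, and H19 and others in organoids, passed the filter on low counts only through the Eed KO libraries. The counts of called genes are thus a description of the genes that could be tested.

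Of 15 listed genes whose products set or keep imprints, 12 could be tested in crypts, and 0 were higher and 3 lower in Eed KO than in WT, against 13.4% of all genes higher and 10.6% lower: the maintenance DNA methyltransferase gene Dnmt1 (-0.97 ± 0.28, SE, edgeR adjusted p = 0.0354), its partner Uhrf1 (-1.17 ± 0.22, SE, edgeR adjusted p = 0.00594) and the insulator protein gene Ctcf (-0.44 ± 0.13, SE, edgeR adjusted p = 0.0368). The calls of Dnmt1 and Ctcf were lost in 9 and 14 of 17 alternative settings, and that of Uhrf1 in 1, run 440 alone. With crypts paired by number, edgeR's adjusted p was 0.101 for Dnmt1 and 0.154 for Ctcf. In organoids none of these 3 passed, and Zfp57, which binds methylated control regions and is itself active early in development, was higher at 2.63 and 2.17 CPM in Eed KO against 0.301 and 0.428 CPM in WT organoids (2.70 ± 0.47, SE, edgeR adjusted p = 0.00794), a call lost without WT organoid 385_1 (edgeR adjusted p = 0.0639). In crypts Zfp57 did not pass (2.41 ± 0.88, SE, edgeR adjusted p = 0.0802).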

How the data were processed

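The deposited values are whole-number read counts for each gene from 2 sequencing runs, a table per run, with Ensembl identifiers and positions per the file headers. The submitters' processing notes name the build GRCm38 and list TopHat2 2.0.12, Bowtie 0.12.9, HTSeq and DESeq2 without roles. Levels and joins used the 21420 identifiers in both tables. Tests used edgeR 4.0.16 (TMM, filterByExpr with a minimum count of 10, robust quasi-likelihood) with Benjamini-Hochberg adjustment over all genes tested, at 0.05: group and run for 9 crypts, group for 4 organoids, and an interaction over 13 libraries. The edgeR step was tested on simulated data. Intervals (exact, 95%) and the floor of 3 counts cover counting error only. Exon lengths are GENCODE M21 unions. Same-numbered Eed KO and WT crypts of a run deviated together from their group means over both runs (correlations 0.177, 0.374 and 0.341 over genes). Libraries of 1 run share its effect, and run 440 has 1 Eed KO and 1 WT crypt, so these values cannot show pairing by number. Within run 385 the correlation was 0.155 for same-numbered and -0.155 for other crypts. With 2 libraries a group these are equal in size by construction. Eed KO 385_1 also correlated more with WT 385_2 (0.37) than with WT 385_1. Fits with crypts paired by number are therefore given as an alternative only. Besides the 10 genes, the text names called genes of their loci (at most 3 per locus), the 6 other imprinted genes most changed in each direction, targeted genes, markers, and all of any count up to 5; Rian, Copg2, Snrpn and Zfp57 in crypts were added after values were seen. 1 listed neighbouring gene is not reported here and is left out of the list's counts. Genes and lists were chosen with earlier results of these data known. Alternatives were DESeq2 1.42.0, other size factors, no low-count filter, no mitochondrial genes, single runs, left-out libraries and a replicate block.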

Additional observations from a re-analysis of the deposited data

Results flagged for a closer look

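The Eed effect differed between crypts and organoids by an interaction test for 3 neighbouring or other imprinted genes. Of 19 neighbours tested 1 was higher and 1 lower, and of 29 other imprinted genes 1 was higher, against 4.12% of all genes called. Peg12 had a crypts minus organoids difference of 2.98 on the log2 scale (edgeR adjusted p = 0.0288), with 4.29 ± 1.45 CPM in Eed KO and 0.516 ± 0.146 CPM in WT crypts (SD, n = 3 each), and 0.637 and 0.644 CPM in Eed KO against 0.526 and 0.771 CPM in WT organoids. Its call was lost in 7 of 18 alternative settings, each leaving out 1 library of run 385. Phlda2 had a difference of 2.95 (edgeR adjusted p = 0.00997), with 5.07 ± 1.28 CPM in Eed KO and 0.848 ± 0.234 CPM in WT crypts (SD, n = 3 each), and 5.26 and 5.31 CPM in Eed KO against 6.31 and 7.45 CPM in WT organoids. Its edgeR adjusted p was 0.0501 without WT organoid 385_2. Ppp1r9a, beside Peg10, had a difference of -2.85 (edgeR adjusted p = 0.0239), with 67.6, 91.3 and 16.1 CPM in Eed KO and 59.7, 77.1 and 51.4 CPM in WT crypts, against 21.8 and 26.1 CPM in Eed KO and 3.83 and 4.88 CPM in WT organoids. Its call was lost in 6 of 18 alternative settings, each leaving out 1 library of run 385, and held within run 385 alone (-2.24, edgeR adjusted p = 0.00193). The part of the sex and strain differences between the organoid groups in these values was not tested.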

How the results depend on the processing

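The number of the 10 genes called stayed within 1.5 times the reported number in 68 of 72 counts over the alternative settings, where 4 moved. For Ezh2 KO against WT crypts it was 1 (Peg3) without WT 440_1, and 0 to 1 over left-out libraries. For the interaction it was 1 (Plagl1) in run 385 alone, without Eed KO crypt 440_1 and without WT crypt 440_1, and 0 to 1 over left-out libraries. Left-out libraries gave 6 to 7 genes called in Eed KO against WT crypts, 5 to 7 against Ezh2 KO crypts and 6 to 7 in organoids. The replicate block, with the crypts paired by number, gave 6 of the 10 genes called in crypts and changed no call among them, with Sgce at edgeR adjusted p = 0.0432. Among the other genes named it ended the calls of Ikzf1, Dnmt1, Ctcf, Epcam, Cd74 and Tyrobp. In organoids the numbers pair only 2 libraries a group, and the block gave 7 called, with Peg3 added (edgeR adjusted p = 0.00993). Values changed sign only for log2 fold changes that had not been called. In run 440 alone these were Peg3 (-1.29) and Ndn (-0.00) for Eed KO against WT, and Plagl1 (-0.12) and Sgce (-0.64) for Ezh2 KO against WT. With DESeq2 they were Sgce for Ezh2 KO (-0.00) and Dlk1 in the interaction (0.13), which was 1.73 in run 385 alone. Over left-out libraries the ranges that crossed 0 were -0.20 to 0.74 for Peg3 in Eed KO against WT crypts. For Ezh2 KO against WT they were -0.11 to 1.87 for Plagl1, -1.42 to 1.14 for Ndn, -0.64 to 2.14 for Sgce and -1.12 to 2.82 for Meg3. For Eed KO against Ezh2 KO they were -1.78 to 0.26 for Peg3 and -0.29 to 3.46 for Mest, and for the interaction -1.33 to 1.73 for Dlk1. The cause of these changes was not tested. Over all genes, alternatives gave 868 to 2433 higher and 406 to 2042 lower in Eed KO against WT crypts (reported 1932 and 1531), 1 to 513 called for Ezh2 KO (reported 3), 1084 to 2461 higher in organoids (reported 1752) and 152 to 1354 for the interaction (reported 608). At these depths genes under about 10 counts a library could not be tested.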
